A study of Mus musculus with 31 samples.

Results

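The genes described here form the transcriptional response to type I interferon, and they were followed through 9 populations of mouse bone marrow blood cells. The 37 listed genes were looked up by symbol in the probe annotation of the array. Probes of 1 gene alone were found for 35 of the 37, out of 19938 genes measured in all. Isg15, whose probe was shared with another gene, and Ifi44 were not analysed here.

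Type I interferons bind a receptor on the cell surface whose kinases, Jak1 and Tyk2, activate transcription factors inside the cell. These bind a short DNA element, the interferon-stimulated response element, and switch on genes whose products sense viral RNA, degrade RNA, block translation or present antigen. In bone marrow, interferon is known to act on stem cells, and stem cells are known to hold some of these genes at a raised level without infection. None of the samples here was labelled as treated with interferon.

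All cells came from the bone marrow of wild-type C57BL/6 mice and were isolated by 2 rounds of sorting, with 20000 cells in a sample, and their RNA was amplified before labelling. The labels call the replicates biological and give no age, sex or pooling of animals. The stem and multipotent cells were Lin-/cKit+/Sca1+, namely long-term stem cells (LT-HSC, Flk2-/CD48-/CD150+, n = 4), short-term stem cells (ST-HSC, Flk2-/CD48-/CD150-, n = 3) and the multipotent progenitors MPP2 (Flk2-/CD48+/CD150+, n = 3), MPP3 (Flk2-/CD48+/CD150-, n = 3) and MPP4 (Flk2+, n = 5). Common myeloid progenitors (CMP, n = 3) were Lin-/cKit+/FcγR-/CD34+ and granulocyte-macrophage progenitors (GMP, n = 4) were Lin-/cKit+/FcγR+/CD34+. Pre-granulocytes (PreGr, n = 3) were Mac1+/Gr1int and granulocytes (Gr, n = 3) were Mac1+/Gr1hi. The submitters used the stem cell and GMP samples as controls for other work as well.

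Transcript levels are log2 values after quantile normalization of the 31 arrays, and levels of different genes cannot be compared because each has its own probe. By values identical between arrays, the 31 arrays formed 5 sets. The overall level before normalization also differed between the sets, except that sets 2 and 4 overlapped. Set 1 held LT-HSC 1 to 3, and set 2 held GMP 4, MPP4 4 and 5, MPP3 3 and LT-HSC 4. Set 3 held ST-HSC, MPP2 and MPP3 1 and 2, set 4 held MPP4 1 to 3 and CMP, and set 5 held GMP 1 to 3, PreGr and Gr. Changes are therefore log2 changes ± SE from a limma fit over all 31 arrays with the set as a block, and the call threshold was an adjusted p of 0.05 after Benjamini-Hochberg correction over all 19938 genes. In this fit only LT-HSC 4 links LT-HSC to the other populations, so that in every comparison with LT-HSC its side is that 1 array. MPP3 is compared with LT-HSC and with MPP4 through MPP3 3 alone, and GMP with CMP through GMP 4 alone and MPP4. ST-HSC and MPP2 are linked to LT-HSC through MPP3, so their changes include the difference of MPP3 3 from MPP3 1 and 2. The error of such a change comes from the spread of the other arrays, and the lone array is assumed to vary as they do.

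Of the sort genes, Ly6g followed its gate and Flt3 did so in part, and the others are not described here. Ly6g, a Gr1 gene, stood at 4.68 to 5.92 on the 25 arrays outside PreGr and Gr, and at 10.71 or above on the 6 arrays of these. Flt3, which encodes Flk2, stood at 10.71 to 11.90 in MPP4, at 7.89 to 8.50 in LT-HSC and at 9.86 to 10.04 in ST-HSC, although ST-HSC were sorted as Flk2 negative. Jchain, a plasma cell gene, stood at 10.85 to 11.53 in MPP3, at 11.19 in MPP2 2 and at 7.07 to 10.61 in PreGr and Gr, and at 6.72 or below on every other array.

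The promoter windows of the members were searched for the element through which the pathway acts. RefSeq windows (build GRCm38.p6, 250 bases before to 50 after each gene start) were found for 26 of the 35 measured members. The letters GAAANNGAAA, the core of the response element, were searched on both strands, so that the same element reads TTTCNNTTTC on the opposite strand. They occurred in the windows of 9 of the 26 members (34.615%), against 1079 of 27025 genes (3.993%) and 1131 of 32851 windows (3.443%). The 9 were Ifih1, Ddx60, Eif2ak2, Stat2, Ifit1, Ifit3, Oas3, Rsad2 and Bst2. A match does not show a site in use, and its absence says only that these letters are not in the window.

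Stretches of 6 of these promoters are printed from RefSeq because their genes carry the results below, with the matched letters in capitals and the rest of each stretch in lower case. Ddx60, Ifit1 and Ifit3 each hold a pair of separate matches, and the 2 matches of Bst2 overlap.
Ddx60 (chr8:61928014-61928086, plus strand): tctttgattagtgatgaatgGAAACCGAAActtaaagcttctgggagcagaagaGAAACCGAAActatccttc
Ifit1 (chr19:34640765-34640833, plus strand): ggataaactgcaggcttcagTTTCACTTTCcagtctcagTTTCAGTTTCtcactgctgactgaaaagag
Ifit3 (chr19:34583353-34583436, plus strand): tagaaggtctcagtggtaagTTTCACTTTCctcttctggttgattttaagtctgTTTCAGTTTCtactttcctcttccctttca
Oas3 (chr5:120777705-120777754, minus strand): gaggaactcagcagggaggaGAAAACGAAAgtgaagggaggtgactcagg
Rsad2 (chr12:26456543-26456592, minus strand): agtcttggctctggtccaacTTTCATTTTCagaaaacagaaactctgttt
Bst2 (chr8:71537567-71537622, minus strand): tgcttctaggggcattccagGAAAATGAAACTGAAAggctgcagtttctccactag

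**Figure D1:**
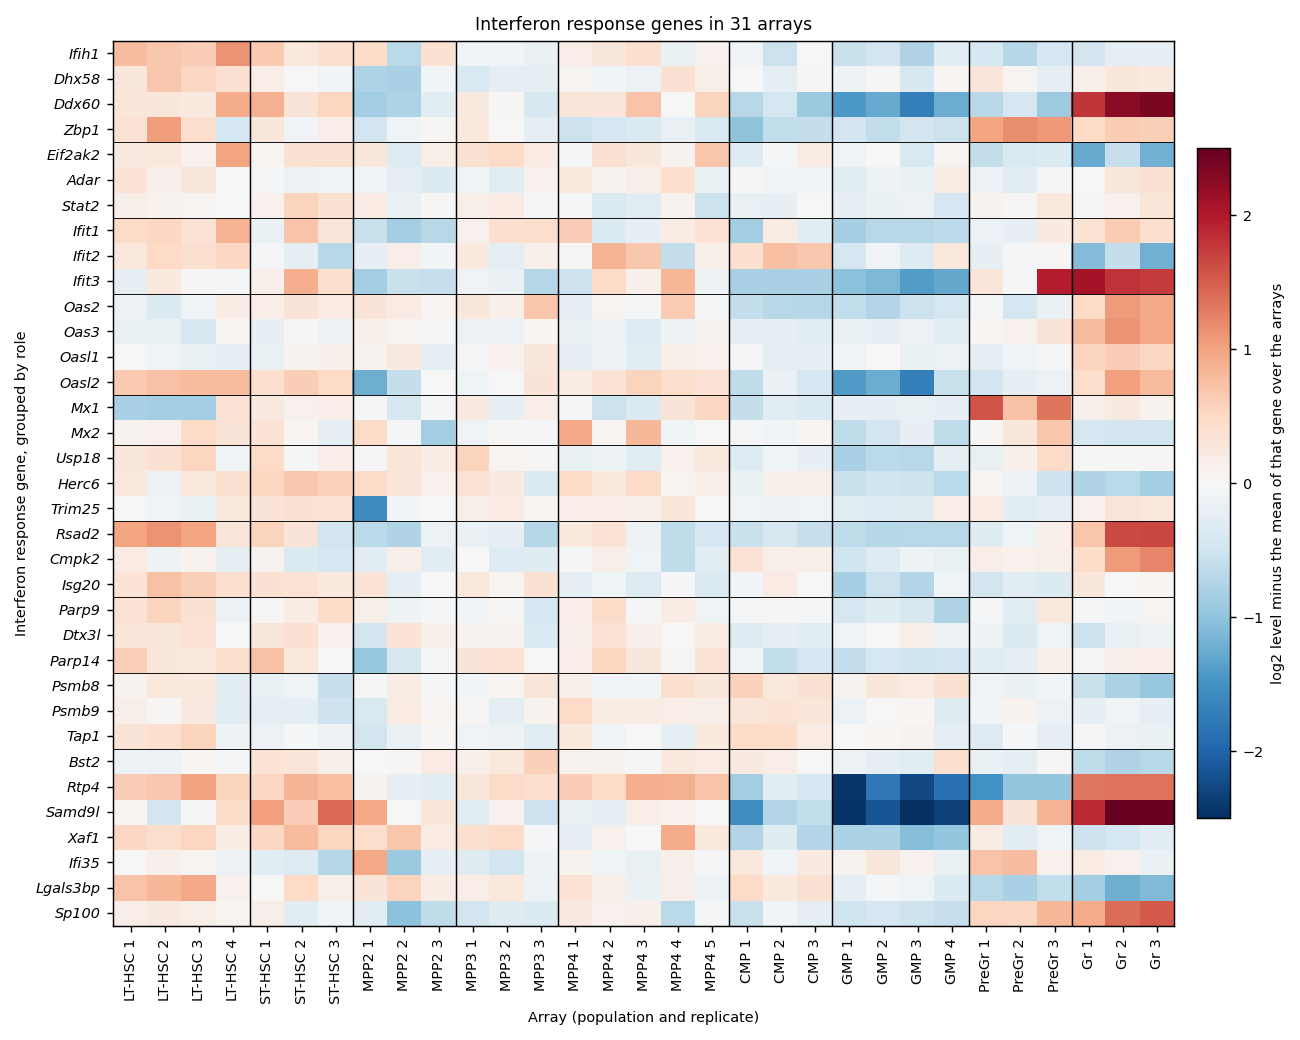
Level of each of the 35 measured members on each of the 31 arrays, as the log2 difference from that gene's mean over the arrays after quantile normalization, with genes in rows by role and arrays in columns by population. Colours are held at 2.5 in either direction; the GMP columns are mostly below the mean, and Ddx60, Rtp4 and Samd9l are high in Gr.

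Averaged over the members, the level was lowest in GMP and highest in LT-HSC and Gr, while single members went different ways. For each array the deviation of each member from its own mean over the 31 arrays was averaged over the 35 members, without adjustment between sets. This mean deviation was -0.57 to -0.43 on the 4 GMP arrays, below every other array. It was 0.22 to 0.28 in LT-HSC, 0.12 to 0.23 in ST-HSC, 0.08 to 0.11 in MPP4 and 0.16 to 0.35 in Gr. It was -0.17 to -0.08 in MPP2, -0.04 to 0.06 in MPP3, -0.24 to -0.13 in CMP and -0.08 to 0.09 in PreGr. With the set shifts removed the mean deviation was -0.47 to -0.36 in GMP, still below every other array. It was then 0.19 to 0.24 in LT-HSC, 0.04 to 0.15 in ST-HSC and 0.08 to 0.11 in MPP4. Gr then stood at 0.26 to 0.45 and PreGr at 0.02 to 0.19, so that ST-HSC overlapped MPP4 and PreGr. By population mean, GMP was the lowest of the 9 populations for 15 of the 35 members, where it was the lowest for 6.03% of all genes. Gr was the highest for 12 members and the lowest for 7, where it was the highest for 23.9% and the lowest for 21.8% of all genes. The 7 include Psmb8, Bst2, Lgals3bp and Eif2ak2. LT-HSC was the highest for 9 members and the lowest for 1, where it was the highest for 16.1% and the lowest for 19.3% of all genes. These ranks use levels not adjusted between sets, and LT-HSC 1 to 3 make up all of set 1. The 1 lowest, Mx1, stood at 5.35 to 5.39 on these arrays and at 6.55 on LT-HSC 4. Several of the 9 did not stay highest in LT-HSC after adjustment. Of these, Usp18 had set-adjusted deviations of -0.34 to -0.07 in LT-HSC and 0.23 to 0.89 in PreGr. By set-adjusted mean, Dhx58 and Isg20 were then higher in Gr, Parp9 in MPP4 and Lgals3bp in CMP than in LT-HSC. Ifih1, Eif2ak2, Ifit1 and Parp14 stayed highest in LT-HSC, Ifih1 at 1.00 to 1.15. In bulk samples, fewer cells that express a gene and less RNA per cell cannot be told apart.

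Set 2 holds arrays of 4 populations and so shows the same order without an adjustment between sets. There the mean deviation was 0.22 in LT-HSC 4, 0.11 and 0.09 in MPP4 4 and 5, -0.04 in MPP3 3 and -0.43 in GMP 4. Rtp4, a chaperone for certain membrane receptors that also acts against viruses, stood at 9.58 in LT-HSC 4, 9.93 and 9.74 in MPP4 4 and 5, 9.44 in MPP3 3 and 7.17 in GMP 4. Samd9l, which encodes an antiviral and growth-restraining protein, stood at 10.33, 9.97, 9.84, 9.34 and 7.52 on these arrays in the same order. GMP 4 was the lowest of the 5 arrays for both genes, and with single arrays this was not tested.

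**Figure D2:**
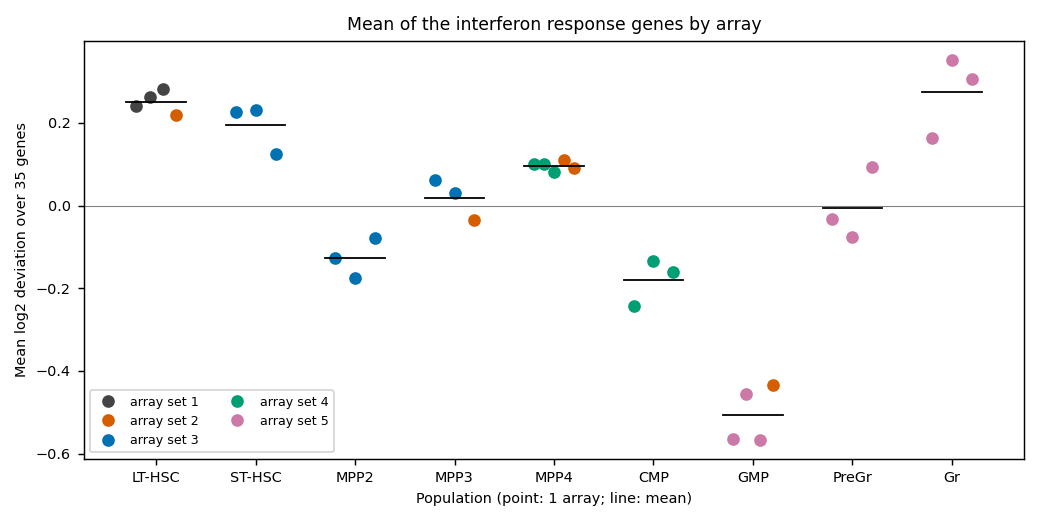
Mean over the 35 members of the log2 deviation from each gene's own mean, for each array, by population; each point is 1 array, lines are population means and colours mark the 5 array sets. Values are not adjusted between sets. The 4 GMP arrays lie at -0.57 to -0.43, below all others, and the LT-HSC arrays at 0.22 to 0.28.

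The largest changes lay on the granulocyte path, from GMP through PreGr to Gr. All of these arrays except GMP 4 belong to set 5, and the 2 steps share the PreGr arrays, so their values are given side by side and not as independent results. From GMP to PreGr 13 of the 35 members were called higher and 1 lower, where 19% of all 19938 genes were called, 7.99% higher and 11% lower. The median change of the members was 0.35, against 0.01 over all genes. From PreGr to Gr 13 members were called higher and 8 lower, where 26.5% of all genes were called, 12.5% higher and 14% lower. The median change was then 0.16, against 0.02 over all genes.

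The largest rise from GMP to PreGr was that of Samd9l. It stood at 7.41, 7.70, 7.04 and 7.52 in GMP 1 to 4, at 10.79, 10.18 and 10.70 in PreGr and at 11.72, 12.35 and 12.53 in Gr. No array of one population overlapped those of another. Its change was 3.17 ± 0.27 from GMP to PreGr (9-fold, limma adjusted p = 7.969e-09) and 1.64 ± 0.27 from PreGr to Gr (adjusted p = 7.044e-05).

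Rtp4 and Ddx60 changed most between PreGr and Gr. Rtp4 stood at 6.59 to 7.24 on the 4 GMP arrays, at 7.52, 8.05 and 8.06 in PreGr and at 10.35, 10.39 and 10.38 in Gr. The populations did not overlap, and Gr was above every array of every other population. Rtp4 rose by 1.01 ± 0.17 from GMP to PreGr (adjusted p = 0.0001484) and by 2.50 ± 0.17 from PreGr to Gr (5.65-fold, adjusted p = 3.624e-10).

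Ddx60, a helicase that helps the RNA sensors of the cell, stood at 6.12 to 6.59 in GMP, at 7.14, 7.41 and 6.92 in PreGr and at 9.62, 10.09 and 10.18 in Gr. Again no arrays overlapped between the 3 populations. The rise was 0.80 ± 0.19 from GMP to PreGr (adjusted p = 0.004221) and 2.81 ± 0.19 from PreGr to Gr (6.99-fold, adjusted p = 2.955e-10). The other sensors took other courses. Zbp1, a sensor of left-handed nucleic acid that can trigger cell death, stood at 7.23 to 7.40 in GMP, 8.84 to 9.02 in PreGr and 8.36 to 8.48 in Gr. It rose by 1.60 ± 0.15 from GMP to PreGr (adjusted p = 4.635e-08) and fell by 0.50 on the log2 scale (SE 0.15) from PreGr to Gr (adjusted p = 0.01705). The fall was not called without the set block (adjusted p = 0.1054), nor with PreGr 2 or Gr 1 left out, where the adjusted p reached 0.06621. Ifih1 and Dhx58, which encode the RNA sensor MDA5 and its partner LGP2, were called at neither step. Ifih1 stood at 8.05 to 8.54 in GMP, 8.09 to 8.38 in PreGr and 8.35 to 8.60 in Gr, and these ranges overlapped.

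The Ifit genes, which lie next to each other on chromosome 19 and encode proteins that bind viral RNA, did not change alike. Ifit3 stood at 5.96, 5.85, 5.59 and 5.70 in GMP, at 7.28, 6.92 and 8.94 in PreGr and at 9.06, 8.79 and 8.73 in Gr. PreGr 3 lay within the range of Gr, and the other PreGr arrays lay between GMP and Gr. Ifit3 rose by 1.92 ± 0.34 from GMP to PreGr (adjusted p = 0.0002149) and by 1.14 ± 0.34 from PreGr to Gr (adjusted p = 0.01511). The second rise was 1.75 without PreGr 3 and 0.75 without PreGr 2, where it was not called (adjusted p = 0.1369), nor was it called without PreGr 1 or Gr 1, or within set 5 alone (adjusted p = 0.06352). Ifit3 has a near-identical neighbour, Ifit3b, and signal shared between their probes was not examined.

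Ifit1 rose by 0.70 ± 0.23 from GMP to PreGr (adjusted p = 0.03748), from 6.33 to 6.50 in GMP to 6.95 to 7.38 in PreGr. The call was lost with any one of GMP 1, GMP 2, GMP 3, PreGr 1 or PreGr 3 left out (adjusted p up to 0.166). Ifit2 moved the other way at the second step, from 8.02, 8.18 and 8.26 in PreGr to 7.15, 7.64 and 7.03 in Gr, with no overlap. It fell by 0.88 on the log2 scale (SE 0.21, adjusted p = 0.00281).

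The Oas genes encode enzymes that answer double-stranded RNA and start RNA decay, or relatives of them that have lost that activity. Oasl2 stood at 7.08, 7.25, 6.78 and 7.93 in GMP, at 8.01, 8.29 and 8.35 in PreGr and at 8.94, 9.51 and 9.29 in Gr, with GMP 4 just under the lowest PreGr array. It rose by 1.18 ± 0.20 from GMP to PreGr (adjusted p = 0.0001565) and was called higher again in Gr. Oas2 stood at 7.05 to 7.33 in GMP, at 7.74, 7.34 and 7.61 in PreGr and at 8.28, 8.84 and 8.73 in Gr, so that only Gr stood well apart. Oas2 rose by 1.05 ± 0.15 from PreGr to Gr (adjusted p = 9.369e-06). Oas3 and Oasl1 were also called higher in Gr than in PreGr. Oas3 was called higher in PreGr than in GMP too, but not without GMP 2 or PreGr 3 (adjusted p up to 0.1241) or within set 5 alone (adjusted p = 0.05641).

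Both Mx genes, which encode dynamin-like GTPases that trap viral particles, peaked in PreGr among these 3 populations. Mx1 stood at 5.99 to 6.02 on the 4 GMP arrays, at 7.78, 6.95 and 7.55 in PreGr and at 6.33, 6.43 and 6.29 in Gr. No PreGr array overlapped either neighbour. Mx1 rose by 1.42 ± 0.16 (adjusted p = 5.194e-07) and then fell by 1.07 on the log2 scale (SE 0.16, adjusted p = 1.755e-05). C57BL/6 mice carry an Mx1 allele that lacks exons and makes no working protein, and the place of the probe in the gene was not examined. Mx2 was called higher in PreGr than in GMP and lower in Gr than in PreGr, by 0.78 on the log2 scale (SE 0.25, adjusted p = 0.02101). These Mx2 calls were lost without GMP 1, GMP 2, PreGr 2 or PreGr 3 for the rise (adjusted p up to 0.1682) and without PreGr 3, Gr 2 or Gr 3 for the fall (adjusted p up to 0.1201).

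Rsad2 and Cmpk2 are neighbours on chromosome 12 and encode viperin, which makes a chain-terminating nucleotide, and a nucleotide kinase that supplies it. Rsad2 stood at 6.25 to 6.34 in GMP, at 6.66, 6.85 and 7.09 in PreGr and at 7.66, 8.62 and 8.63 in Gr. The populations did not overlap. The rise from PreGr to Gr was 1.43 ± 0.23 (2.7-fold, adjusted p = 4.479e-05), and the step from GMP to PreGr was not called. Cmpk2 was also called higher in Gr than in PreGr, from 6.79 to 6.85 in PreGr to 7.15, 7.75 and 7.91 in Gr.

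Several members fell from PreGr to Gr. Psmb8, a subunit of the immunoproteasome that cuts proteins for antigen presentation, stood at 10.60, 10.54 and 10.63 in PreGr and at 10.14, 9.93 and 9.75 in Gr, without overlap. It fell by 0.65 on the log2 scale (SE 0.12, adjusted p = 0.0001487). Eif2ak2, the kinase PKR that halts translation, fell by 0.58 on the log2 scale (SE 0.19, adjusted p = 0.02274), from 8.27 to 8.54 in PreGr to 7.62, 8.29 and 7.66 in Gr, where Gr 2 overlapped PreGr. Its call was lost without the set block (adjusted p = 0.05544) and without PreGr 2, PreGr 3, Gr 1 or Gr 3 (adjusted p up to 0.1215). Bst2, the tether that holds budding virus at the membrane, fell by 0.57 on the log2 scale (SE 0.09, adjusted p = 3.21e-05), from 8.62 to 8.88 in PreGr to 8.09 to 8.20 in Gr. Herc6, the ligase that attaches Isg15 to proteins in mice, was also called lower in Gr.

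Among the remaining members Sp100, a component of nuclear bodies, was called higher at both steps, at 9.75 to 9.90 in GMP, 10.84 to 11.15 in PreGr and 11.26 to 11.85 in Gr. Its second call was lost without Gr 3 (adjusted p = 0.06144). Usp18, which removes Isg15 and damps the interferon receptor, and Xaf1, which promotes cell death, were called higher in PreGr than in GMP and were not called from PreGr to Gr. Lgals3bp, a secreted glycoprotein, was the 1 member called lower in PreGr, from 8.10 to 8.39 in GMP to 7.63 to 7.81 in PreGr. It fell by 0.58 on the log2 scale (SE 0.14, adjusted p = 0.002899). Isg20, an exonuclease, and Adar, which edits double-stranded RNA, were called higher in Gr than in PreGr. The Isg20 call was lost without PreGr 1 or Gr 1 (adjusted p up to 0.0649). The Adar call was lost without the set block (adjusted p = 0.06412) and without PreGr 1, PreGr 2, Gr 2 or Gr 3 (adjusted p up to 0.1502).

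**Figure D3:**
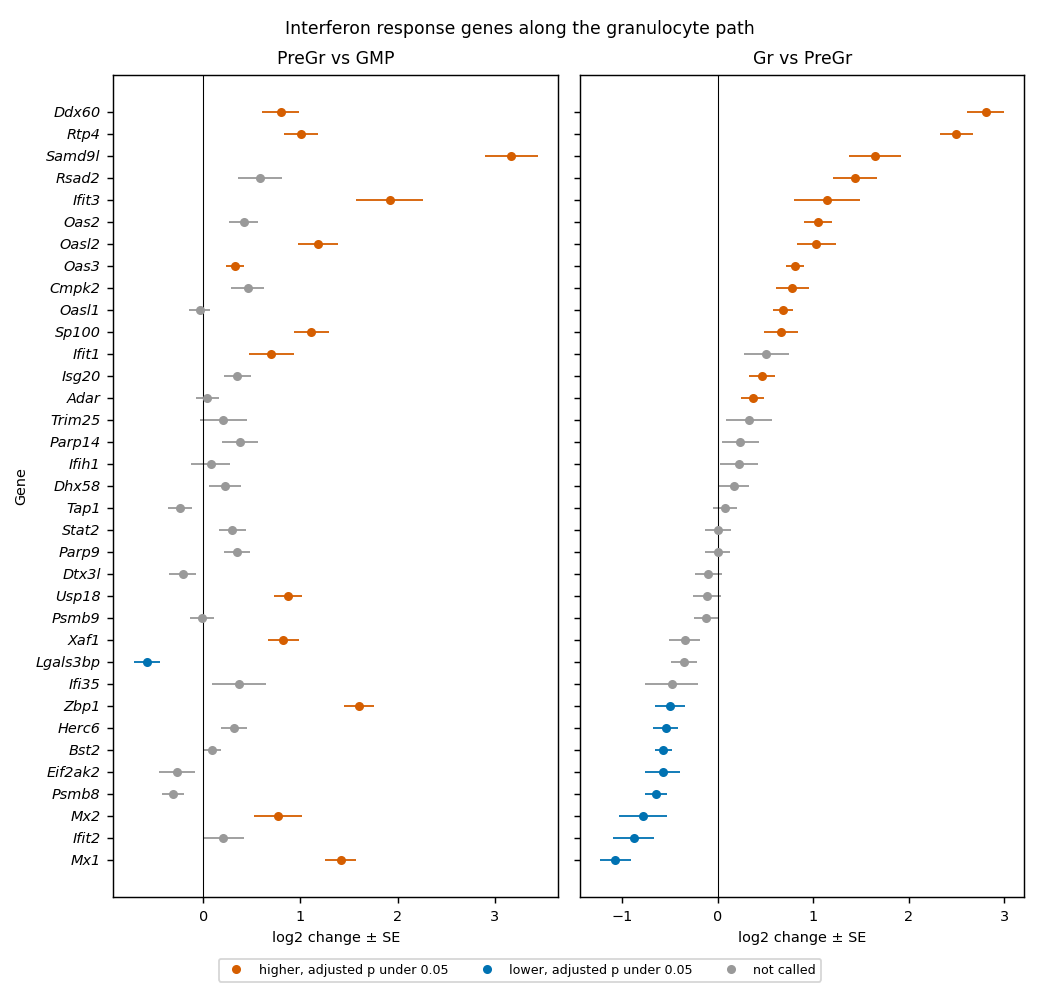
Log2 change ± SE of each measured member from GMP to PreGr and from PreGr to Gr in the set-adjusted fit, coloured by call at an adjusted p under 0.05. Samd9l has the largest change at the first step, 3.17, and Ddx60 at the second, 2.81.

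The letters of the response element occurred in members called in either direction on this path. Of the 13 members called higher from PreGr to Gr, 11 had a promoter window and 4 of these held the GAAANNGAAA letters, namely Ddx60, Ifit3, Oas3 and Rsad2. Of the 8 called lower, 5 had a window and 2 held the letters, Eif2ak2 and Bst2. From GMP to PreGr 4 of the 8 rising members with a window held them, Ddx60, Ifit1, Ifit3 and Oas3. Among members not called, 5 of 17 with a window held the letters from GMP to PreGr and 3 of 10 from PreGr to Gr.

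Other genes of the pathway moved on the same path. Among 24 measured genes of interferon signalling, 7 were called higher and 1 lower in PreGr than in GMP, and 6 higher and 5 lower in Gr than in PreGr. Among 36 measured interferon-induced genes that are not members, 15 were called higher and 2 lower at the first step, and 13 higher and 9 lower at the second. The 4 largest called changes of these lists from GMP to PreGr were those of Ifi27l2a (3.46 ± 0.23), Slfn5 (2.84 ± 0.26), the RNA receptor gene Tlr7 (1.98 ± 0.23) and Shisa5 (1.50 ± 0.13). From PreGr to Gr they were those of Ifit1bl2 (3.54 ± 0.13), Ifitm1 (2.41 ± 0.14), Ifi209 (-1.64 ± 0.33) and Pnpt1 (-1.58 ± 0.21).

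Markers of other cells moved at the same steps. Of 6 measured monocyte and macrophage markers, 5 were called higher in PreGr than in GMP and 5 lower in Gr than in PreGr, and their summed linear level was 3564 to 4287 in GMP, 7319 to 10097 in PreGr and 2950 to 5260 in Gr. Of 7 measured B and plasma cell markers, 5 were called higher in PreGr than in GMP and 2 higher in Gr than in PreGr, with sums of 1019 to 1102, 1840 to 3490 and 2198 to 4043. Of 7 T and NK cell markers, 4 were called higher at the first step, and 2 higher and 3 lower at the second, with sums of 2937 to 3725, 1896 to 2977 and 949 to 1554. At the first step no T or NK cell marker was called lower, although their sum went down. A sum of linear levels follows its brightest genes most. None of 5 plasmacytoid dendritic cell markers was called from GMP to PreGr, and 1 was called higher and 1 lower from PreGr to Gr, with sums of 968 to 1072, 974 to 1140 and 932 to 1223. The part of these cells in the changes of the members was not tested.

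**Figure D4:**
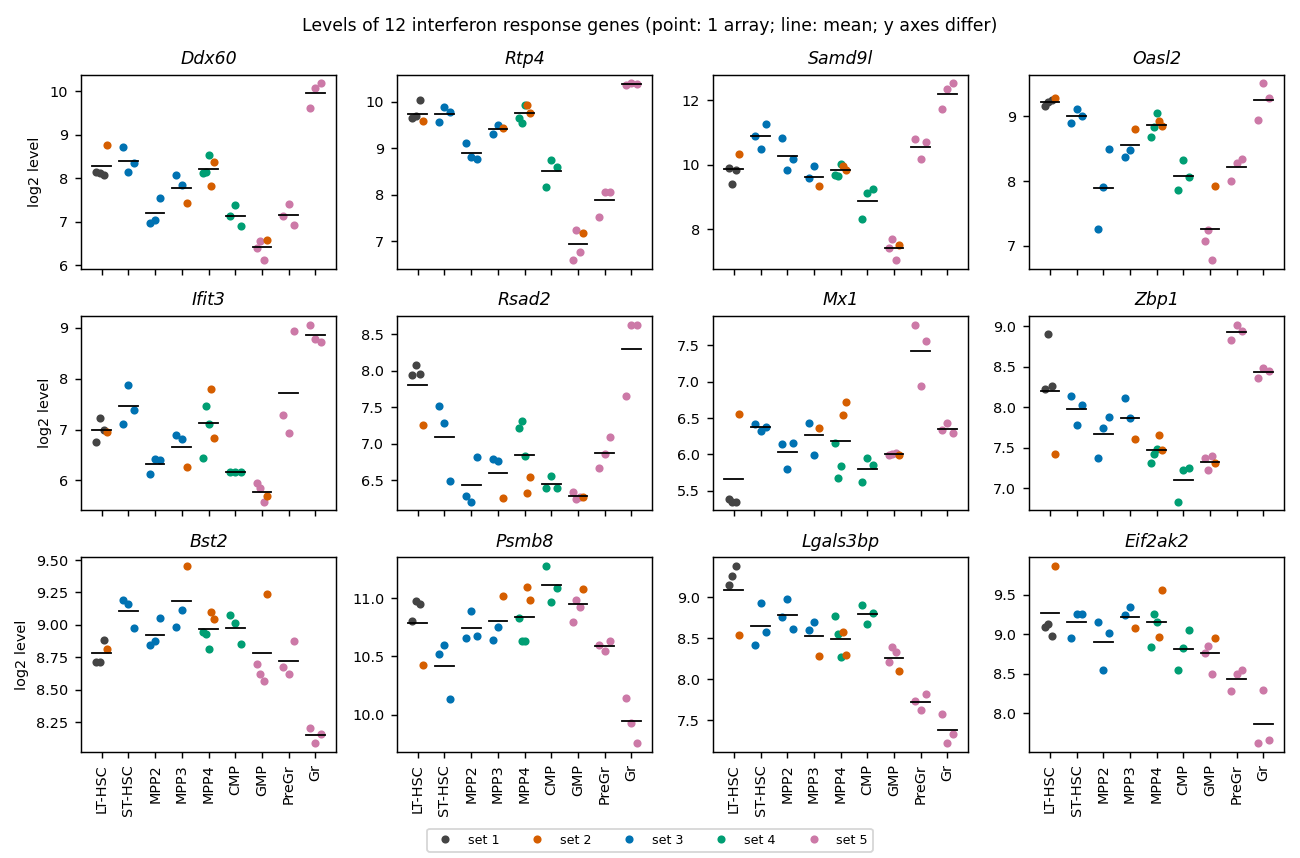
Quantile-normalized log2 level of 12 members on every array by population; each point is 1 array, lines are population means, colours mark the array sets, and y axes differ between panels. Rtp4 is at 6.59 to 7.24 in GMP and 10.35 to 10.39 in Gr, and Mx1 is higher in PreGr (6.95 to 7.78) than in GMP or Gr.

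From MPP4 to CMP some of the members fell. Of 35 members 8 were called lower, 1 higher and 26 not at all, where 7.23% of all genes were called, 2.82% lower and 4.41% higher. The median change of the members was -0.26, against 0.02 over all genes. The change rests on set 4, that is on MPP4 1 to 3 and CMP 1 to 3. Within this set alone 10 members were called lower and 1 higher, where 9.07% of all genes were called.

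Rtp4 stood at 9.65, 9.53, 9.93, 9.93 and 9.74 in MPP4 and at 8.17, 8.75 and 8.60 in CMP, without overlap. It fell by 1.20 on the log2 scale (SE 0.17, adjusted p = 0.0001564). Ddx60 stood at 8.13, 8.14, 8.54, 7.82 and 8.38 in MPP4 and at 7.14, 7.39 and 6.89 in CMP, again without overlap. It fell by 1.13 on the log2 scale (SE 0.19, adjusted p = 0.0008137).

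Both of these calls held with each array left out in turn, which the other calls of this comparison did not. Samd9l stood at 9.65 to 10.02 in MPP4 and at 8.30, 9.13 and 9.24 in CMP, and its fall of 0.90 (adjusted p = 0.04739) was lost with any one of 18 arrays left out. The fall of Oasl2, by 0.77 on the log2 scale (adjusted p = 0.02301), was lost without MPP4 2, MPP4 3, CMP 1 or CMP 3 (adjusted p up to 0.1168). Parp14, an ADP-ribosyltransferase, fell by 0.71 on the log2 scale (adjusted p = 0.02285), which was lost without MPP4 2, MPP4 3, CMP 2 or CMP 3 (adjusted p up to 0.1141). Oas2 fell by 0.61 on the log2 scale (adjusted p = 0.01315), from 7.55 to 8.41 in MPP4 to 7.06 to 7.18 in CMP, and lost its call without MPP4 2 or MPP4 3 (adjusted p up to 0.06601). Xaf1 was lost without MPP4 2, MPP4 3, CMP 1 or CMP 3 (adjusted p up to 0.1351). Dtx3l, a ubiquitin ligase that pairs with Parp9, was lost with any one of 19 arrays left out and without the set block (adjusted p = 0.08088). Psmb8 was the 1 member called higher in CMP, by 0.41 ± 0.12 (adjusted p = 0.03199), with overlapping arrays, and its call was lost without the set block (adjusted p = 0.2678) and without MPP4 2, MPP4 3, CMP 1 or CMP 3 (adjusted p up to 0.1598). The count of members called fell to 3 without MPP4 2, to 2 without MPP4 3 and to 4 without CMP 1 or CMP 3.

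Of the 36 measured interferon-induced genes outside the list, 10 were called lower and 2 higher. The 4 largest called changes were those of Ifi209 (1.71 ± 0.33), Trim30d (-1.11 ± 0.14), Slfn5 (-1.10 ± 0.26) and Ifitm1 (-1.01 ± 0.14). The Slfn5 change was not called without the set block. Of the signalling genes 1 of 24 was called lower and none higher, the RNA sensor gene Ddx58. Of 6 monocyte and macrophage markers 3 were called higher in CMP, with summed levels of 866 to 1215 in MPP4 and 1437 to 1981 in CMP, and their part in these changes was not tested.

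From CMP to GMP Rtp4 was the 1 member called, where 1.32% of all genes were called, 0.692% lower. It fell further, from 8.17, 8.75 and 8.60 in CMP to 6.59, 7.24, 6.77 and 7.17 in GMP, of which the fit uses the last, by 1.47 on the log2 scale (SE 0.31, adjusted p = 0.01603). The arrays did not overlap. The call was lost without MPP4 4 (adjusted p = 0.0768), since the populations are linked through MPP4. Without MPP4 5 there were 2 calls, where calls over all genes rose to 537 from 264. The median change of the members was -0.23, against 0.02 over all genes. Without the set block 9 members were called lower and none higher, where 11.7% of all genes were called. Other interferon-induced genes gave 1 call of 36, lower, for Lgals9 (-1.18 ± 0.20).

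MPP2 stood below ST-HSC for part of the members. In this comparison, which rests on set 3 alone, 9 of 35 members were called lower and none higher, where 10.8% of all genes were called, 5.95% lower and 4.87% higher. The median change of the members was -0.25, against 0.07 over all genes, and 27 of the 35 changes were negative. In a fit to the arrays of set 3 alone 4 members were called, Ddx60, Ifit1, Ifit3 and Rtp4, where 4.37% of all genes were called.

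Ddx60 stood at 8.72, 8.15 and 8.36 in ST-HSC and at 6.98, 7.05 and 7.55 in MPP2, without overlap. It fell by 1.21 on the log2 scale (SE 0.19, adjusted p = 0.0001483). Rtp4 stood at 9.55, 9.88 and 9.77 in ST-HSC and at 9.12, 8.82 and 8.76 in MPP2, also without overlap. It fell by 0.84 on the log2 scale (SE 0.17, adjusted p = 0.002258).

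Ifit1 and Ifit3, whose promoters hold a pair of matches each, were lower in MPP2. Ifit1 stood at 6.98, 7.87 and 7.45 in ST-HSC and at 6.59, 6.30 and 6.46 in MPP2, and it fell by 0.98 on the log2 scale (SE 0.23, adjusted p = 0.007117). Ifit3 stood at 7.11, 7.87 and 7.38 in ST-HSC and at 6.13, 6.42 and 6.40 in MPP2, and it fell by 1.14 on the log2 scale (SE 0.34, adjusted p = 0.03432). Neither gene overlapped between the populations. The Ifit1 call was lost without ST-HSC 2 (adjusted p = 0.05247) and the Ifit3 call without ST-HSC 2, ST-HSC 3, MPP2 1 or MPP2 2 (adjusted p up to 0.1321).

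Oasl2 stood at 8.90 to 9.11 on the 3 arrays of ST-HSC and at 7.26, 7.90 and 8.50 in MPP2, and it fell by 1.11 on the log2 scale (SE 0.20, adjusted p = 0.0007228). Its MPP2 arrays were all below ST-HSC and spread over a wider range. Trim25, a ligase that activates an RNA sensor, stood at 9.40 to 9.46 in ST-HSC and at 7.50, 9.02 and 9.09 in MPP2. Its change of -0.90 was set by MPP2 1 and was -0.38 without it (adjusted p = 0.03558). Parp14 was called lower too, but not without ST-HSC 1 or MPP2 1 (adjusted p up to 0.07027). Dhx58 lost its call without ST-HSC 1, MPP2 1 or MPP2 2 (adjusted p up to 0.1123). Sp100 overlapped between the populations, lost its call with any one of 19 arrays left out and was at -0.36 without MPP2 2 (adjusted p = 0.2452). Within set 3 alone the adjusted p was 0.05651 for Oasl2, 0.2374 for Trim25, 0.1293 for Parp14, 0.1434 for Dhx58 and 0.1678 for Sp100.

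Among the other interferon-induced genes 11 of 36 were called lower and 1 higher in MPP2 than in ST-HSC. The 4 largest called changes were those of Slfn5 (-1.94 ± 0.26), Trim30d (-1.14 ± 0.14), Lgals9 (1.13 ± 0.11) and Oas1b (-1.04 ± 0.18). Of the signalling genes 5 of 24 were called lower and 1 higher. Without the set block 2 of the 24 were called lower and none higher. A fit to only the set that holds ST-HSC and MPP2 gave the same counts, 2 lower and none higher. Of the B and plasma cell markers 1 of 7 was called higher, with summed levels of 951 to 1103 in ST-HSC and 1233 to 4007 in MPP2, the highest in MPP2 2. Of the T and NK cell markers 1 of 7 was called higher, with sums of 838 to 1027 and 1664 to 2000. No plasmacytoid dendritic cell marker and no monocyte marker was called, and the part of these cells in the changes was not tested.

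**Figure D5:**
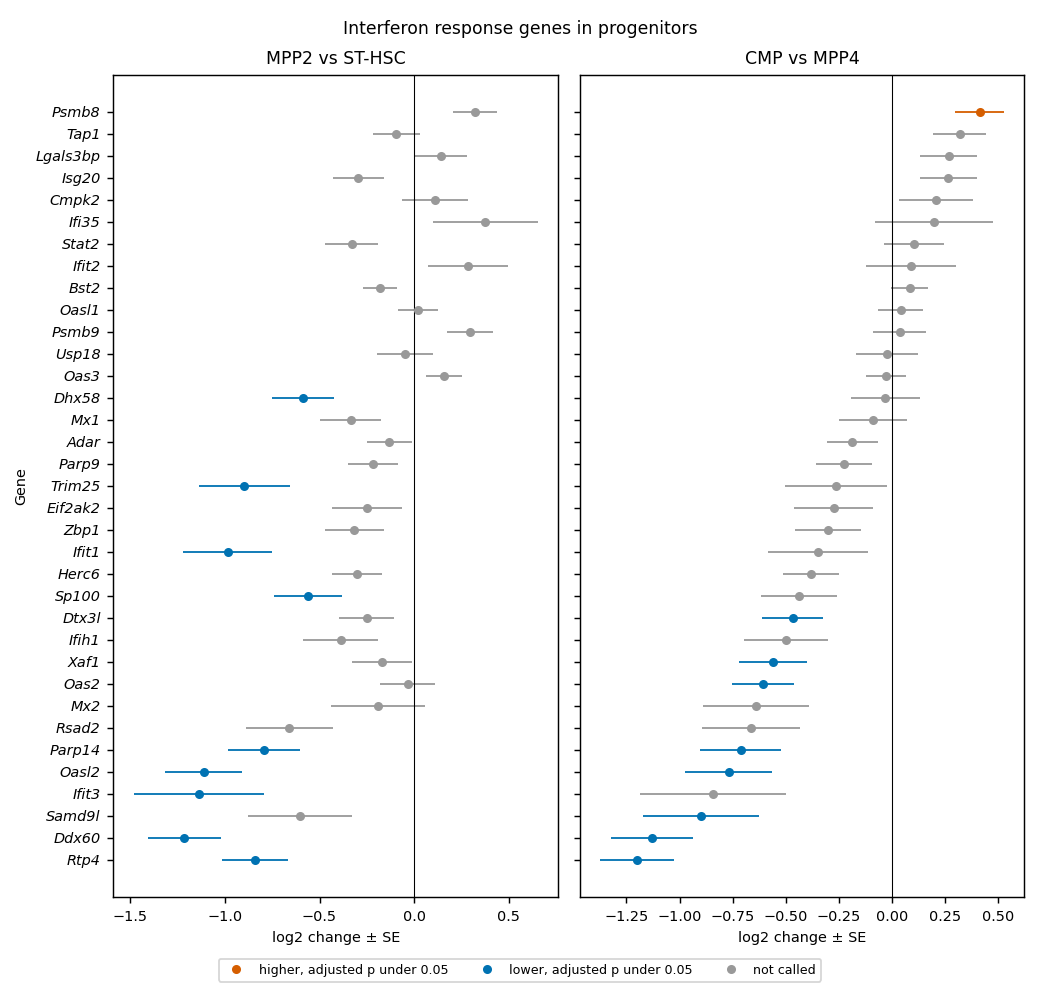
Log2 change ± SE of each measured member in MPP2 against ST-HSC and in CMP against MPP4 in the set-adjusted fit, coloured by call at an adjusted p under 0.05. The called members lie below 0 in both panels except Psmb8, which is at 0.41 in CMP against MPP4.

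Few members separated the other multipotent populations. In MPP3 against ST-HSC 1 of 35 members was called, Samd9l, where 3.12% of all genes were called, 1.16% lower. It stood at 10.88, 10.48 and 11.28 in ST-HSC and at 9.58, 9.97 and 9.34 in MPP3, without overlap, and with MPP3 1 and 2 carrying the MPP3 side it fell by 1.11 on the log2 scale (SE 0.31, adjusted p = 0.04877). The call was lost with any one of 20 arrays left out and within set 3 alone (adjusted p = 0.2051). Of the other interferon-induced genes 8 of 36 were called lower and 2 higher, and the largest called changes were those of Ifi209 (1.69 ± 0.37), Slfn5 (-1.10 ± 0.29), Trim30d (-0.98 ± 0.16) and Oas1b (-0.90 ± 0.21). Within set 3 alone 2 of the 36 were called lower and 1 higher. Of the B and plasma cell markers 4 of 7 were called higher in MPP3 than in ST-HSC. Their sums were 5254 to 7469 in MPP3, 951 to 1103 in ST-HSC and 750 to 1188 in MPP4. Of the T and NK cell markers 3 of 7 were called higher in MPP3, with sums of 1951 to 2493 against 838 to 1027 in ST-HSC. The part of these cells in the levels of the members was not tested.

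In MPP2 against MPP3 limma called none of the 35 members, where 1.06% of all genes were called. With MPP2 3 left out 4 members were called, where calls over all genes rose to 668 from 211. Without ST-HSC 1, MPP4 1 or CMP 1 there was 1 member called. The fit without sets called 1, where it called 0.963% of all genes. In MPP3 against MPP4, which sets MPP3 3 against MPP4 4 and 5, limma called none, where 1.16% of all genes were called. Without MPP4 5 there was 1 call, and the fit without sets called 0, where it called 1.56% of all genes.

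Against LT-HSC few members were called with the set block, and each of these calls rests on LT-HSC 4. The calls in MPP2 rest on MPP3 3 as well, through the link between the sets. Without the block, where LT-HSC 1 to 3 stand against arrays of other sets, 13 members were called in MPP2, 10 in MPP3 and 6 in MPP4, where 36.1%, 27.5% and 24.7% of all genes were called. In MPP2 2 of 35 members were called lower, where 8.16% of all genes were called, 2.8% lower, with a median change of -0.36 for the members and 0.16 for all genes. Ddx60 stood at 8.14, 8.11, 8.08 and 8.77 in LT-HSC 1 to 4 and at 6.98, 7.05 and 7.55 in MPP2. The LT-HSC arrays were all above MPP2, and LT-HSC 4 was above the other LT-HSC arrays. Ddx60 stood at 7.44 in MPP3 3 and at 8.07 and 7.85 in MPP3 1 and 2, and the set-adjusted change includes this difference. The change was -2.10 ± 0.40 (adjusted p = 0.004999) with the set block and -1.08 without it (adjusted p = 0.0002178). The call of Parp14, at -1.26 ± 0.39 (adjusted p = 0.04784), was lost with any one of 19 arrays left out. The count of members called was 1 to 8, with 8 when MPP2 3 was left out. Calls over all genes rose there too, to 2748 from 1627 with every array.

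In MPP3 the set-adjusted change is the level of MPP3 3 minus that of LT-HSC 4, 1 array against 1, so the values are given as a difference of these arrays with no p. The fit placed 2 members lower and 1 higher past its threshold, where 6.65% of all genes passed it, 2.32% lower and 4.33% higher, and nothing is read from this count. The median difference was -0.23 over the members and 0.10 over all genes. Ifih1 stood at 9.93 in LT-HSC 4 and at 8.63 in MPP3 3, a difference of -1.30. On the other arrays it stood at 9.57, 9.48 and 9.42 in LT-HSC and at 8.75 and 8.74 in MPP3, so that the populations did not overlap. Without the set block its change was -0.89 (adjusted p = 0.001538).

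Ddx60 differed by -1.33 between the same arrays, and LT-HSC 4 was the highest of the LT-HSC arrays for this gene. Without the block its change was -0.49 and was not called (adjusted p = 0.07251). Bst2 stood at 8.82 in LT-HSC 4 and at 9.45 in MPP3 3, a difference of 0.63. It stood at 8.72, 8.71 and 8.89 on the other LT-HSC arrays and at 8.98 and 9.11 on the other MPP3 arrays, both below MPP3 3. Its change was 0.40 without the block (adjusted p = 0.02297), and in deposited values with the block the difference was 0.19.

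In MPP4 1 member was called, where 2.74% of all genes were called, 1.35% lower. This was Ifih1, at 8.97, 9.09, 9.22, 8.65 and 8.92 in MPP4, below all LT-HSC arrays. Its change, from MPP4 4 and 5 and LT-HSC 4, was -1.15 ± 0.30 (adjusted p = 0.03775), it was -0.63 without the set block (adjusted p = 0.008508), and the call was lost without MPP4 4 (adjusted p = 0.1812). The count of members called was 2 without ST-HSC 3, MPP2 2, Gr 1 or Gr 3. In ST-HSC limma called none of the 35 members, where 1.47% of all genes were called. Without MPP2 3 there was 1 call. In this comparison the fit without sets called 2 members higher and 5 lower, where 22.8% of all genes were called.

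Outside the list, the 4 largest called changes of interferon genes in MPP2 against LT-HSC were those of Slfn5 (-2.01 ± 0.53), Oas1c (-1.52 ± 0.30), Ddx58 (-1.20 ± 0.35) and Lgals9 (1.13 ± 0.23). Ifi209, Oas1c, Lgals9 and Trim30d differed between MPP3 3 and LT-HSC 4 by 2.65, -1.23, 0.89 and -0.84 in this order.

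Of the 35 members, 30 (85.7%) were called in at least 1 of the 12 comparisons, where 47.3% of all genes were, and 5 in none. The 5 were Stat2, Parp9, Ifi35, Psmb9 and Tap1, a transcription factor of the pathway, the partner of Dtx3l, a protein that binds other interferon-induced proteins, an immunoproteasome subunit and a peptide transporter. Stat2 ranged from 7.52 to 8.62 and Parp9 from 7.38 to 8.69 over the 31 arrays. Psmb9 ranged from 11.42 to 12.41 and Tap1 from 7.77 to 8.78. Ifi35 ranged from 7.20 to 9.09, both in MPP2.

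The members did not vary as 1 block. Over the 31 set-adjusted arrays, which share populations and sets, the correlation of 2 members had a median of 0.14 over 595 pairs and ranged from -0.87 to 0.89. Psmb8 correlated at -0.74 with the mean of the other members, Bst2 at -0.49 and Lgals3bp at -0.38. The 10 genes outside the list whose set-adjusted levels correlated most with the mean of the members were Atp7a and Fmnl2 (0.93 each), Ddx58 (0.92), Ifitm3, Ythdf3 and Jak1 (0.91 each), and Nabp1, Tob1, Sh3glb1 and Samsn1 (0.89 to 0.90). Of these, Ddx58 and Ifitm3 are interferon-induced and Jak1 is a kinase of the receptor.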

How the data were processed

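RNA of 31 sorted samples of 9 populations was measured on Affymetrix mouse gene arrays. The deposited table holds log2 values, made by the authors with RMA per the submitters' processing notes; its version and genome build are not given in the sources used here. Of 35557 probes, 21789 were annotated with 1 gene, 1621 with several and 12147 with none. Only the first were used, with the brightest probe for a gene, which left 19938 genes. The deposited values were quantile-normalized, since sets of arrays, found from values identical between arrays (2 or more shared by a pair), had medians from 6.19 to 7.83. No scanner files or background calls were used, and the number of arrays limits the precision.

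limma 3.58.1 in R 4.3.3 fitted 1 mean per population and 1 shift per set (18 residual degrees of freedom, or 22 without sets), for 12 comparisons, with Benjamini-Hochberg adjustment over all genes at 0.05. A set is assumed to shift a gene alike in all its populations. Where nothing says that samples came from separate animals, p-values measure only the spread between these samples. Promoters came from RefSeq and were searched in Python 3.11.15, with matplotlib 3.10.9 for the plots.

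In each comparison up to 6 called members with the largest change per direction could be named with their change, and up to 4 called genes of the interferon lists outside the members. The members, lists, comparisons and the set block were chosen with earlier results of these data known. Alternatives were deposited values, no set block, the mean of probes, genes above the median level, single sets, a replicate block and leaving out each array.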

Additional observations from a re-analysis of the deposited data

Results flagged for a closer look

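In 6 of 105 groups of 4 or 5 arrays, 1 array lay far from the others by its gap to the nearest over the range of the group. Chance gives about 1 in 20 such groups.

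In LT-HSC this was LT-HSC 4 for 3 genes, and LT-HSC 4 is in another array set than LT-HSC 1 to 3. Ddx60 stood at 8.77 on it and at 8.08 to 8.14 on the others. Mx1 stood at 6.55 on it and at 5.35 to 5.39 on the others. Rsad2 stood at 7.26 on it and at 7.94 to 8.08 on the others. In GMP, Trim25 stood at 9.24 on GMP 4, also in another set than the rest of its population, and at 8.75 to 8.80 on GMP 1 to 3. In MPP4, Sp100 stood at 9.65 on MPP4 4 and at 10.28 to 10.54 on the others, and Psmb9 at 12.41 on MPP4 1 and at 12.07 to 12.13 on the others. A difference of set and a difference between samples cannot be told apart for LT-HSC 4 and GMP 4.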

How the results depend on the processing

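Quantile normalization without the set block called 7 members in ST-HSC against LT-HSC, 13 in MPP2, 10 in MPP3 and 6 in MPP4 against LT-HSC, 1 in MPP2 against MPP3 and 9 in GMP against CMP. It called 4542, 7197, 5487 and 4932 genes against LT-HSC, 1312 in MPP2 against ST-HSC and 2323 in GMP against CMP. The set-adjusted fit had called 293, 1627, 1326, 547, 2158 and 264 genes there. Deposited values without the block moved the median of all genes by up to 1.35. They called 33, 25, 21 and 9 members against LT-HSC, 2 in MPP2 against ST-HSC, 11 in MPP3 against MPP4, 3 in CMP against MPP4, 2 in GMP against CMP and 12 in Gr against PreGr. Gene counts were 18431, 17789, 15774 and 11964 against LT-HSC, 334 and 260 in MPP2 and MPP3 against ST-HSC, and 26 in MPP2 against MPP3. They were 10731 in MPP3 against MPP4, 343 in CMP against MPP4, 1534 in GMP against CMP, 1686 in PreGr against GMP and 2004 in Gr against PreGr. Relative to the median of all genes, Bst2 in MPP3 against LT-HSC reversed to -0.0053 there.

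Deposited values with the block called 0 members in MPP4 against LT-HSC, MPP3 against ST-HSC and GMP against CMP. They called 116 genes in ST-HSC and 345 in MPP4 against LT-HSC, 91 in MPP3 against MPP4 and 2855 in CMP against MPP4. Genes above the median level gave 1050 calls in MPP2 and 344 in MPP4 against LT-HSC, where fewer genes were tested. Single sets called 4 members in MPP2 and 0 in MPP3 against ST-HSC, from fewer arrays. The mean of probes moved none of these counts by over 1.5 times. Each measured member has only 1 probe of its own, so this setting could not change the levels of the members. For the other settings the cause was not tested.

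Same-numbered arrays had residual correlations from -0.1001 to 0.1784, and in no comparison did every pair exceed 0.1, so the numbers were not taken to pair samples. A replicate block called 0 members in MPP3 against ST-HSC, 2 in GMP against CMP, 984 genes in MPP4 against LT-HSC and 491 in GMP against CMP.

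With each array left out, members called were 0 to 1, 1 to 8, 3 to 4 and 0 to 2 in ST-HSC, MPP2, MPP3 and MPP4 against LT-HSC, 6 to 10 and 0 to 1 in MPP2 and MPP3 against ST-HSC, and 0 to 4 in MPP2 against MPP3. They were 0 to 1 in MPP3 against MPP4, 2 to 10 in CMP against MPP4, 0 to 2 in GMP against CMP, 11 to 18 in PreGr against GMP and 17 to 23 in Gr against PreGr. Genes called, in the same order of comparisons, were 90 to 389, 715 to 2748, 1154 to 1577, 292 to 1043, 1408 to 2951, 282 to 720, 56 to 668, 173 to 313, 720 to 1669, 179 to 537, 2936 to 4115 and 3618 to 5564. Comparisons with LT-HSC gave no value without LT-HSC 4, and those of ST-HSC, MPP2 and MPP3 with LT-HSC or MPP4 none without MPP3 3. GMP against CMP gave none without GMP 4.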
